A study of Mus musculus with 5 samples.

Results

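The nuclear-encoded subunits of respiratory complexes II, III, IV and V, together with cytochrome c, were examined in RNA-seq libraries of mouse bone marrow-derived macrophages. Members were taken by symbol: Sdha, Sdhb, Sdhc, Sdhd, Cyc1, Cycs and every symbol that starts with Uqcr, Cox4, Cox5, Cox6, Cox7, Cox8 or Atp5, each represented by its transcript row with the highest mean count. This gave 49 of the 20583 gene symbols in the count table, from 53 transcript rows. Macrophages were grown from bone marrow of NICcA mice (n = 2 libraries, numbered 2 and 3) and of wild type (WT) mice (n = 3 libraries, numbered 1, 2 and 3). Per the labels, mice of both genotypes were 7 to 8 weeks old on a C57BL/6 background, and marrow cells of both received M-CSF, the macrophage growth factor, at 25 ng/ml for 7 days. The labels do not spell NICcA out, and the promoter or Cre line that drives the allele is not given in the sources used here; elsewhere the name has been used for mice that conditionally express a Notch intracellular domain. Whether the libraries of a genotype stem from different mice or dishes is not stated in the labels; a p-value here therefore measures only the spread among libraries, and that spread may be technical.

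Mitochondria make most of their ATP by passing electrons along a chain of protein complexes in the inner membrane. Complex II (succinate dehydrogenase) feeds electrons from the citric acid cycle into coenzyme Q, complex III passes them to cytochrome c, and complex IV (cytochrome c oxidase) gives them to oxygen. Complex V (ATP synthase) uses the proton gradient built by complexes III and IV, and by complex I, which is not among the members here. In macrophages these complexes are known for their part in activation: cells stimulated with lipopolysaccharide lean on glycolysis and let succinate accumulate, whereas alternatively activated cells rely on oxidative phosphorylation.

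The libraries held between 57442309 and 76562905 counted reads. All 7 macrophage markers were present in every library, with a summed level of 11600 and 12300 CPM (counts per 1e6 reads of the TMM-scaled library) in NICcA replicates 2 and 3, against 13600, 16200 and 20000 CPM in WT replicates 1, 2 and 3. Lyz2 made up most of that sum, and the markers differed in direction. Fcgr1, Itgam and Emr1 had log2 fold changes of 0.91, 0.47 and 0.16. Cd68, Mertk, Lyz2 and Csf1r had values of -0.65, -0.57, -0.55 and -0.16. The edgeR adjusted p ran from 0.29 to 0.73, and DESeq2 called Fcgr1 at an adjusted p of 0.041. Without overlap between the groups, 1 marker was higher in NICcA and 3 were lower (18.3% and 18.5% of all genes). At an unadjusted edgeR p under 0.05, 1 was higher and 3 were lower (7.68% and 6.83% of all genes). Dendritic cell markers (5 genes) summed to 995 and 638 CPM in NICcA and to 704, 893 and 875 CPM in WT, mostly from Itgax. Itgax had a log2 fold change of -0.19 with overlapping groups (edgeR adjusted p = 0.67). The other 4, Flt3, Zbtb46, Dpp4 and Ccr7, had log2 fold changes of 1.05, 1.10, 2.11 and 1.39 (edgeR adjusted p between 0.29 and 0.49). DESeq2 called Dpp4 at an adjusted p of 0.032. For 3 of the 5 markers (Flt3, Zbtb46 and Dpp4) both NICcA libraries were above all WT libraries, as for 18.3% of all genes. Neutrophil markers (4 genes) summed to 55.3 and 69.2 CPM in NICcA and 47.3, 30.5 and 60.5 CPM in WT. The 5 B and T cell markers summed to at most 0.735 CPM in any library and the 4 striated muscle markers to at most 2.59 CPM. Fibroblast markers summed to 2.66 and 1.12 CPM in NICcA and to 15.9, 1.92 and 1.24 CPM in WT, so that WT replicate 1 was highest. A list of 12 inflammatory genes, chosen with earlier results of these data known, was all present and summed to 1640 and 187 CPM in NICcA, against 92.3, 136 and 68.7 CPM in WT. NICcA replicate 2 therefore stood apart from its own group in inflammatory transcripts, and the median log2 fold change of that list was 0.56 without it, against 3.39 with it. Both NICcA libraries were above all WT libraries for 6 of the 12 genes and below for 0 (18.3% and 18.5% of all genes). The remaining genes overlapped. At an unadjusted edgeR p under 0.05, 8 were higher and 0 lower (7.68% and 6.83% of all genes). After adjustment edgeR called 0, and DESeq2 called 5 higher (2.05% of all genes). Il1b was at 76.4 CPM in NICcA replicate 3, against at most 16.6 CPM in WT. WT replicate 2 differed from its group in part of the list. Irg1 was at 55.2 CPM there, against 12.1 and 10.9 CPM in WT replicates 1 and 3. Ptgs2, Nos2 and Il6 were at 4.86, 1.19 and 2.29 CPM, against at most 0.989, 0.156 and 0.104 CPM. These genes were also above NICcA replicate 3, while Il1a, Il1b and Il12a were lowest in WT replicate 2. The part of these differences in the results below was not tested.

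Promoters of the members are shown first, because the letters in them are a feature that the choice by symbol did not use. NRF1, the ETS-family factor GABPA and YY1 are known regulators of nuclear genes for respiratory subunits. The RefSeq promoter table (build GRCm38.p6, 250 bases before to 50 after each start) held an entry for 38 of the 49 members. The NRF1 letters GCGCATGCG, searched on both strands, were in the promoters of 7 of these 38 members (18.4%), against 1.95% of the promoters of all genes in the table and 3.89% of those of genes tested here. The ETS letters CCGGAAG were in 12 members (31.6%), against 9.93% of all genes and 19.2% of tested genes. The YY1 letters AAGATGGCG were in 3 members (7.89%), against 1.64% and 3.38%. The NRF1 letters were found in Cycs, Uqcr11, Uqcrc1, Cox6a1, Atp5g2, Atp5k and Atp5l, that is in cytochrome c and in complexes III, IV and V. Their log2 fold changes between NICcA and WT ran from -0.02 to 0.16, with a median of 0.06.

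Printed below are promoters with the NRF1 letters from each of those groups, with Sdhb for complex II and Atp5e because it had the smallest p of all members. They are from RefSeq, 5′ to 3′ along the gene's strand, in lower case with matches in capitals: GCGCATGCG or its reverse complement CGCATGCGC for NRF1 (the run GCGCATGCGC holds both, overlapping by all but their outer letters), and CCGGAAG or its reverse complement CTTCCGG for ETS. They lie at chr4:140961021-140961320 (+ strand) for Sdhb, chr10:80406772-80407071 (- strand) for Uqcr11, chr6:50566520-50566819 (- strand) for Cycs, chr5:115348909-115349208 (- strand) for Cox6a1, chr5:108434350-108434649 (- strand) for Atp5k and chr2:174464052-174464351 (- strand) for Atp5e.
Sdhb: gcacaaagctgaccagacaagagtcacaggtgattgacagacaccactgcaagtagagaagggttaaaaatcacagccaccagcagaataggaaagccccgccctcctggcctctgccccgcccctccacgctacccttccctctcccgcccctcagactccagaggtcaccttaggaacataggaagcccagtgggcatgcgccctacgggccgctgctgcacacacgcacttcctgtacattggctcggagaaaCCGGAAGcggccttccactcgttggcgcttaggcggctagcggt
Uqcr11: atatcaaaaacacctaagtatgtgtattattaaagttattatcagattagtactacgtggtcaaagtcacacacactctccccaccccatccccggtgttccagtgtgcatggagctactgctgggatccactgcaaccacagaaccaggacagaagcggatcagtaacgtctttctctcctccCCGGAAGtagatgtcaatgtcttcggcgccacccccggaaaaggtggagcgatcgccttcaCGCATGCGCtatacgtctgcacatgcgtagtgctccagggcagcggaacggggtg
Cycs: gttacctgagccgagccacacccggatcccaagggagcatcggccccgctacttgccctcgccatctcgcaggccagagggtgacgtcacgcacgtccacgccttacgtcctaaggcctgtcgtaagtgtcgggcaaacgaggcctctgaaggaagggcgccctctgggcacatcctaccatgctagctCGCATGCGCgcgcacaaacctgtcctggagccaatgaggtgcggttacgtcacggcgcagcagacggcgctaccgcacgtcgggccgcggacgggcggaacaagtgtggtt
Cox6a1: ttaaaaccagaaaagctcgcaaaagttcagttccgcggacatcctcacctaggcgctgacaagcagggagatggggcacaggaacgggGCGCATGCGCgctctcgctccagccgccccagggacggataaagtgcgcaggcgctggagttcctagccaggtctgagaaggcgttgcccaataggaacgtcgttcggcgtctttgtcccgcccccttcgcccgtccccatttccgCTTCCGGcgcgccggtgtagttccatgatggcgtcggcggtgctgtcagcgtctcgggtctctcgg
Atp5k: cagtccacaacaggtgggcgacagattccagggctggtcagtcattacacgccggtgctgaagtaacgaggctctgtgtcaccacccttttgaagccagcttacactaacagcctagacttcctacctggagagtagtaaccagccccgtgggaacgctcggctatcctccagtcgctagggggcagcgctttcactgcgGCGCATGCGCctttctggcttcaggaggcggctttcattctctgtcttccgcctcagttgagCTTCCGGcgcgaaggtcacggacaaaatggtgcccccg
Atp5e: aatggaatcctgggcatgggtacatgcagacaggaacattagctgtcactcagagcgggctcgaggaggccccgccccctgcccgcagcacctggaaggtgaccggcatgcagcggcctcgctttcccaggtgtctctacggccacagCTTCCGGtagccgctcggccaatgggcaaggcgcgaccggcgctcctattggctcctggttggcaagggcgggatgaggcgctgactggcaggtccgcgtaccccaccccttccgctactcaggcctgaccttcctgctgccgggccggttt
Uqcr11, Cox6a1 and Atp5k carry NRF1 and ETS letters in the same window, Cycs carries the NRF1 letters alone, and Sdhb and Atp5e carry the ETS letters alone. A match is a description of these letters and was not tested as a binding site.

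The comparison of NICcA with WT asked whether transcripts of these complexes differ between the genotypes. The respiratory subunits stayed close to their WT level. Of the 49 members, 45 passed the filter on low counts and were tested with edgeR's quasi-likelihood test over all genes; Cox4i2, Cox7b2, Cox8b and Cox8c did not pass. None of the 45 was called at an adjusted p under 0.05 (0 higher, 0 lower; 0.0300% of the 13341 genes tested were called), and the smallest adjusted p was 0.36. At an unadjusted p under 0.05, 0 members were higher and 0 were lower, where 7.68% of all genes were higher and 6.83% lower. limma-voom called 0 members, and DESeq2 called 0 in either direction, against 2.05% of all genes higher and 1.90% lower. Both NICcA libraries lay above all WT libraries for 1 member (Atp5e; 18.3% of all genes) and below all of them for 2 members (Uqcrb and Cox6b2; 18.5% of all genes). Fewer cells of a type and less RNA per cell cannot be told apart in such bulk libraries.

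The median log2 fold change of the 45 members was 0.05, where a positive value means higher in NICcA and the median over all genes was 0.00. It was -0.04 for complex II (4 members; 0.06 without a scaling factor), 0.06 for complex III (9 members), -0.02 for cytochrome c (1 member; 0.08 without a scaling factor), 0.07 for complex IV (14 members) and 0.05 for complex V (17 members). The log2 fold change was above 0 for 33 of the 45 members, against 50.5% of all genes. That count was 43 of 45 without a scaling factor, 24 of 45 without NICcA replicate 2 and 22 of 45 without WT replicate 3, with median log2 fold changes of 0.02 and 0.00 in the last 2 cases. Without NICcA replicate 2 the median was -0.11 for complex II, 0.07 for complex III, -0.17 for cytochrome c, 0.04 for complex IV and 0.02 for complex V.

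Setting aside the tissue-restricted isoforms Cox4i2, Cox6a2, Cox6b2, Cox7a1, Cox7b2, Cox8b and Cox8c, and the products Cox7a2l, Atp5s and Atp5sl, which carry a family symbol without being core subunits, left 39 core subunits. Their log2 fold changes ran from -0.09 to 0.40. In 37 of them (94.9%) the log2 fold change was within 0.2 of 0, as it was for 48.1% of all genes. Over all 45 tested members it was within 0.2 of 0 for 39 (86.7%). The 95% interval lay within 1 of 0 for 41 of these 45. The 95% interval of the log2 fold change lay within 1 of 0, a 2-fold change either way, for 39 of the 39 core subunits and for 9197 of the 13341 genes tested. It lay within 0.5 of 0 for 28 core subunits and for 4412 genes. These transcripts are abundant: every core subunit was at or above the 79.2th percentile of genes tested by mean RPKM (counts adjusted for transcript length and depth), and the median standard error of the log2 fold change was 0.12 for core subunits and 0.17 for all genes. These intervals bound the size of a difference and do not show that the genotypes are equal.

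**Figure D1:**
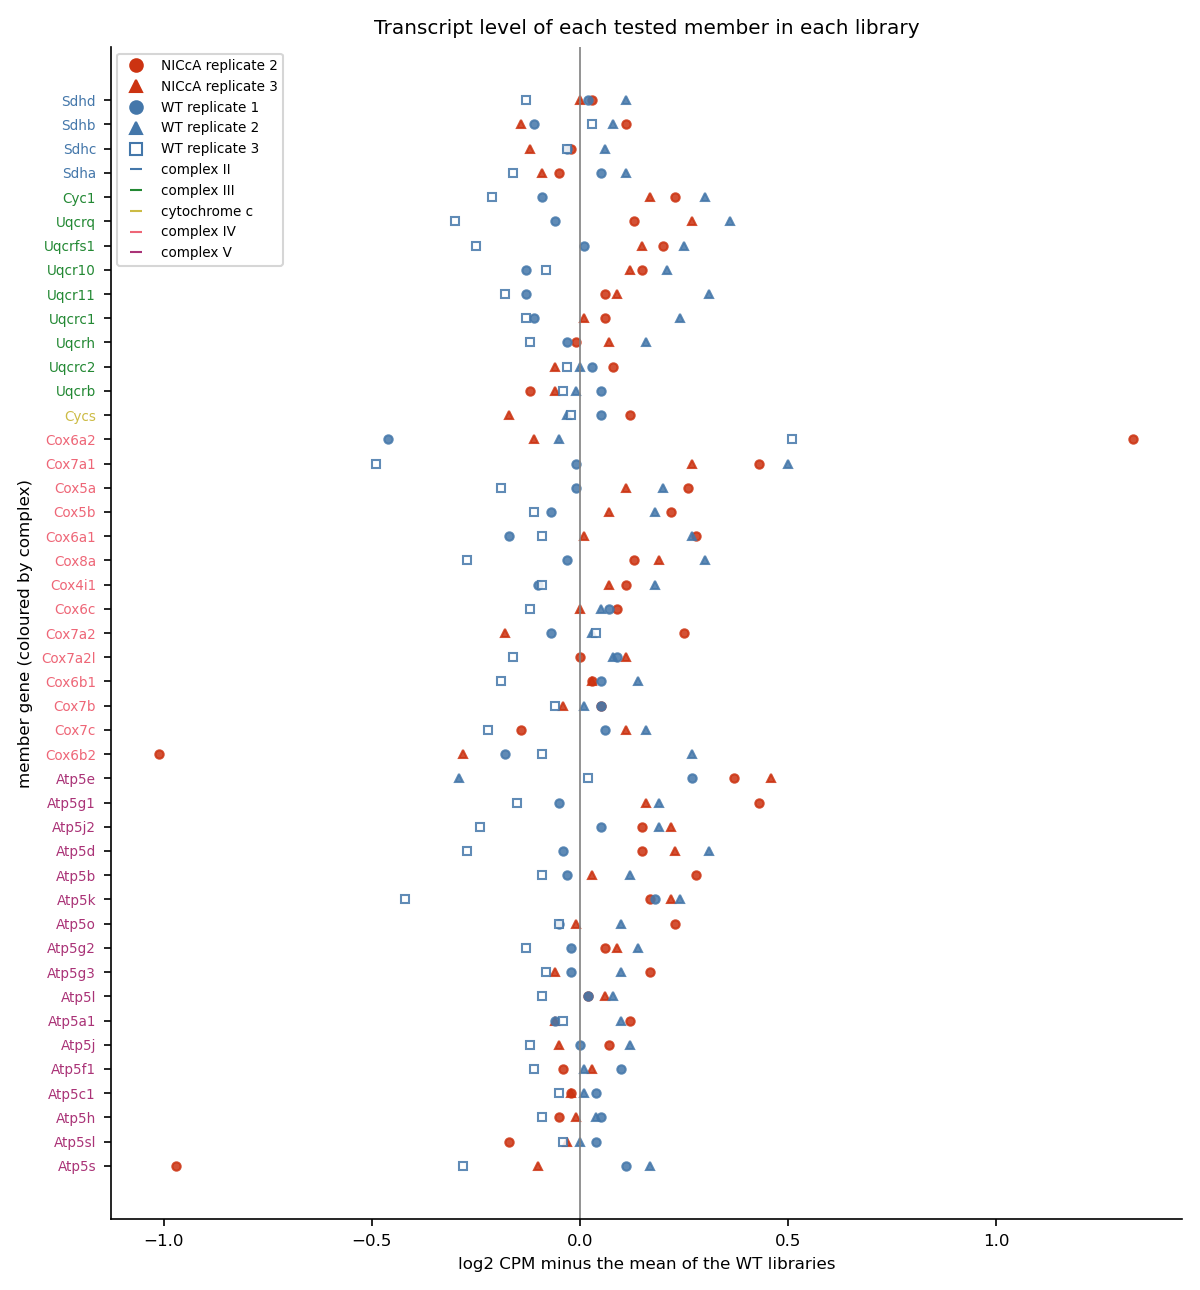
Level of each of the 45 tested members in each library, as log2 CPM minus the mean of the 3 WT libraries (x axis), with genes on the y axis coloured by complex and sorted by fold change within it; NICcA libraries are red, WT libraries blue. Most points of a gene fall close together, WT replicate 3 (open squares) is often the lowest, and the 4 genes with wide spreads (Cox6a2, Cox7a1, Cox6b2 and Atp5s) lie below the core subunits in mean RPKM.

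In the core subunits the spread among the WT libraries was wider than the distance between the genotypes (median log2 fold change 0.05). The median deviation of the core subunits from their WT mean (log2 CPM) was 0.11 in NICcA replicate 2 and 0.03 in NICcA replicate 3. It was -0.02, 0.12 and -0.11 in WT replicates 1, 2 and 3. NICcA replicate 2 and WT replicate 2 thus lay at about the same height, and WT replicate 3 lay below all other libraries. NICcA replicates 2 and 3 had the highest level of the 5 libraries for 14 and 2 of the 39 core subunits, and WT replicates 1, 2 and 3 for 4, 19 and 0. The lowest level was in NICcA replicates 2 and 3 for 1 and 6 core subunits, and in WT replicates 1, 2 and 3 for 3, 1 and 28.

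**Figure D2:**
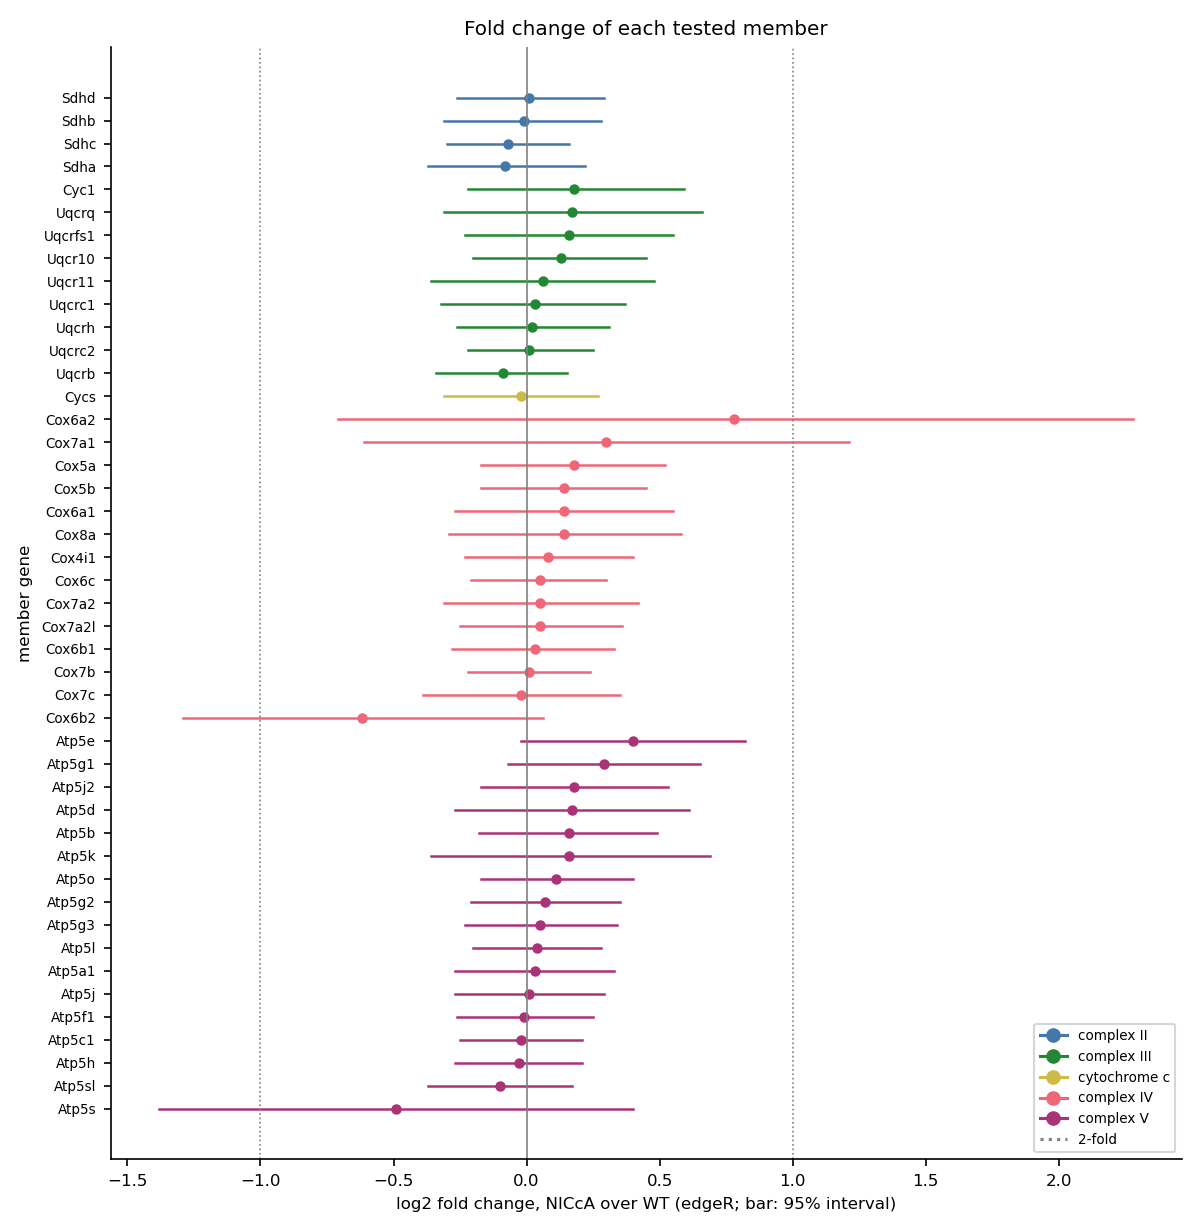
Log2 fold change of NICcA over WT for each tested member (points, x axis) with its 95% interval from edgeR (bars), by complex; dotted lines mark a 2-fold change. All 45 intervals include 0, and those of the 39 core subunits lie between -0.39 and 0.82.

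Complex II had the narrowest range of log2 fold changes of the 4 complexes, from -0.08 to 0.01. It also had the fewest tested members (4, against 9, 14 and 17), and a range tends to widen with more members. The core subunits of complex IV alone ran from -0.02 to 0.18. Sdha, the flavoprotein that oxidises succinate, was at 166 and 162 CPM in NICcA, against 179, 185 and 154 CPM in WT (log2 fold change -0.08, SE 0.12, edgeR adjusted p = 0.78). Sdhb, the iron-sulfur subunit that hands electrons on to the membrane part, was at 75.2 and 63.1 CPM in NICcA, against 64.7, 73.5 and 71.2 CPM in WT (log2 fold change -0.01, SE 0.12, adjusted p = 0.96). In both genes the groups overlapped, and for Sdhb the NICcA libraries were the highest and the lowest of the 5. Sdhc and Sdhd anchor the enzyme in the membrane and bind coenzyme Q. Sdhc was at 68.6 and 64.0 CPM in NICcA, against 68.3, 72.3 and 68.1 CPM in WT (log2 fold change -0.07, SE 0.09, adjusted p = 0.74). Sdhd was at 125 and 122 CPM in NICcA, against 124, 131 and 111 CPM in WT (log2 fold change 0.01, SE 0.11, adjusted p = 0.96). Across the 4 genes the 95% intervals lay between -0.37 and 0.29. Without a scaling factor Sdha, Sdhb and Sdhc stood at 0.03, 0.09 and 0.04, so their direction depended on the scaling. Per length, Sdhd was the most abundant at a mean of 77.8 RPKM over all libraries and the other 3 lay between 47.1 and 52.7 RPKM.

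In complex III the NICcA libraries lay inside the range of the WT libraries for every subunit except Uqcrb and Uqcrc2. Cyc1, the c-type cytochrome of the complex, was at 59.0 and 56.4 CPM in NICcA, against 47.1, 61.8 and 43.4 CPM in WT (log2 fold change 0.18, SE 0.17, edgeR adjusted p = 0.61). Uqcrfs1, the Rieske iron-sulfur protein, was at 137 and 132 CPM in NICcA, against 120, 141 and 99.8 CPM in WT (log2 fold change 0.16, SE 0.16, adjusted p = 0.64). Uqcrq, a small subunit that binds next to cytochrome b, was at 61.2 and 67.4 CPM in NICcA, against 53.6, 71.9 and 45.6 CPM in WT (log2 fold change 0.17, SE 0.20, adjusted p = 0.69). All 3 had WT replicate 2 as the highest library and WT replicate 3 as the lowest. Uqcrh, the acidic hinge protein at the docking site of cytochrome c, was at 62.8 and 66.4 CPM in NICcA, against 61.9, 70.7 and 58.2 CPM in WT (log2 fold change 0.02, SE 0.12, adjusted p = 0.94). Uqcrb, a subunit of the coenzyme Q binding region, went the other way with 28.5 and 29.7 CPM in NICcA, against 32.3, 30.9 and 30.2 CPM in WT. Its groups did not overlap, the gap was small, and it did not pass the test (log2 fold change -0.09, SE 0.10, adjusted p = 0.66; 0.01 without a scaling factor). The matrix core proteins Uqcrc1 and Uqcrc2 and the small subunits Uqcr10 and Uqcr11 had log2 fold changes of 0.03, 0.01, 0.13 and 0.06, with overlapping groups in each. The median of complex III was 0.23 without WT replicate 2, 0.03 without WT replicate 1 and 0.00 without WT replicate 3.

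Cycs encodes cytochrome c, the soluble carrier between complexes III and IV and a trigger of apoptosis when released into the cytosol. It was at 64.0 and 52.4 CPM in NICcA, against 61.0, 57.7 and 58.4 CPM in WT (log2 fold change -0.02, SE 0.12, 95% interval -0.31 to 0.27, edgeR adjusted p = 0.94). The NICcA libraries were the highest and the lowest of the 5 and the WT libraries lay between them. Leaving out NICcA replicate 2 gave -0.17 and leaving out NICcA replicate 3 gave 0.12, and the value was 0.08 without a scaling factor, so the direction depended on these choices. Per length Cycs was the least abundant core member, at a mean of 15.6 RPKM over all libraries.

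Complex IV held the most abundant member per length. Cox4i1, the ubiquitous form of a subunit that contributes to regulation of the enzyme by ATP, was at 306 and 297 CPM in NICcA, against 265, 322 and 267 CPM in WT (log2 fold change 0.08, SE 0.13, edgeR adjusted p = 0.78), and averaged 350 RPKM over all libraries. Cox8a, the ubiquitous form of a small subunit, was at 141 and 147 CPM in NICcA, against 126, 159 and 106 CPM in WT (log2 fold change 0.14, SE 0.18, adjusted p = 0.71), and averaged 203 RPKM. Cox5a, a matrix-side structural subunit, was at 72.4 and 65.1 CPM in NICcA, against 59.9, 69.6 and 53.0 CPM in WT (log2 fold change 0.18, SE 0.14, adjusted p = 0.56; 0.10 without NICcA replicate 2). In all 3 the groups overlapped and WT replicate 2 was close to or above the NICcA libraries. Of the 10 core subunits of complex IV, 9 had a log2 fold change above 0 (highest 0.18) and Cox7c was at -0.02. The catalytic subunits, encoded in mitochondrial DNA, were not analysed here.

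Several complex IV subunits exist as a ubiquitous form and as forms restricted to other tissues. Forms typical of heart and skeletal muscle (Cox6a2, Cox7a1, Cox8b), of lung (Cox4i2) and of testis (Cox6b2, Cox7b2, Cox8c) were all far below their ubiquitous counterparts or undetected in these macrophages. Cox6b2 was the highest of them, with a mean of 8.35 RPKM over all libraries beside 127 RPKM for the ubiquitous Cox6b1 and a median of 4.64 RPKM over all genes tested. It was at 2.71 and 4.52 CPM in NICcA, against 4.86, 6.62 and 5.14 CPM in WT. The groups did not overlap, although NICcA replicate 3 lay just under WT replicate 1, and the difference did not pass the test (log2 fold change -0.62, SE 0.28, 95% interval -1.29 to 0.06, edgeR adjusted p = 0.36). The value was -0.30 without NICcA replicate 2 and -1.03 without NICcA replicate 3. The size of the difference thus depended on which NICcA library was left out. These 2 libraries also differed in inflammatory transcripts, whose part was not tested. The share of Cox6b2 in the summed RPKM of Cox6b1 and Cox6b2 was 3.58% and 5.85% in NICcA, against 6.20%, 7.78% and 7.60% in WT (exact permutation test, two-sided, p = 0.20, adjusted p = 0.80 over 12 isoform shares). With 2 against 3 libraries 0.2 is the smallest p that this test can give.

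Cox6a2 counted 41 and 15 reads in NICcA, against 9, 16 and 22 reads in WT. The groups overlapped, NICcA replicate 2 was the highest library, and the log2 fold change of 0.78 (SE 0.61, edgeR adjusted p = 0.56) turned to -0.19 without it. Cox7a1 counted 73 and 70 reads in NICcA, against 46, 84 and 37 reads in WT (log2 fold change 0.30, SE 0.37, adjusted p = 0.71); it was 0.08 without WT replicate 3 and 0.60 without WT replicate 2. The annotated gene of Cox6a2 overlaps Itgad, an integrin gene of leukocytes, and the strand setting of the counts is not given in the sources used here, so reads from the overlap cannot be assigned; 3.33% of the 50-base stretches of the Cox6a2 transcript occur in Itgad transcripts. Cox4i2 counted 6 and 5 reads in NICcA, against 1, 1 and 1 reads in WT. These 11 against 3 reads give a ratio of 5.19 per scaled library, with an exact 95% interval of 1.37 to 29.0 that covers counting error only; the gene was too low to enter the test and overlaps Bcl2l1. Cox8b counted 4 and 5 reads in NICcA, against 7, 3 and 2 reads in WT. Cox8c had 0 reads in each NICcA library and 1 read in WT, in replicate 3. Cox7b2 had 0 reads in all 5 libraries, which allows up to 0.0449 and 0.0416 CPM in NICcA replicates 2 and 3 and up to 0.0521, 0.0409 and 0.0455 CPM in WT replicates 1, 2 and 3 (3 counts of the library, counting error only).

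**Figure D3:**
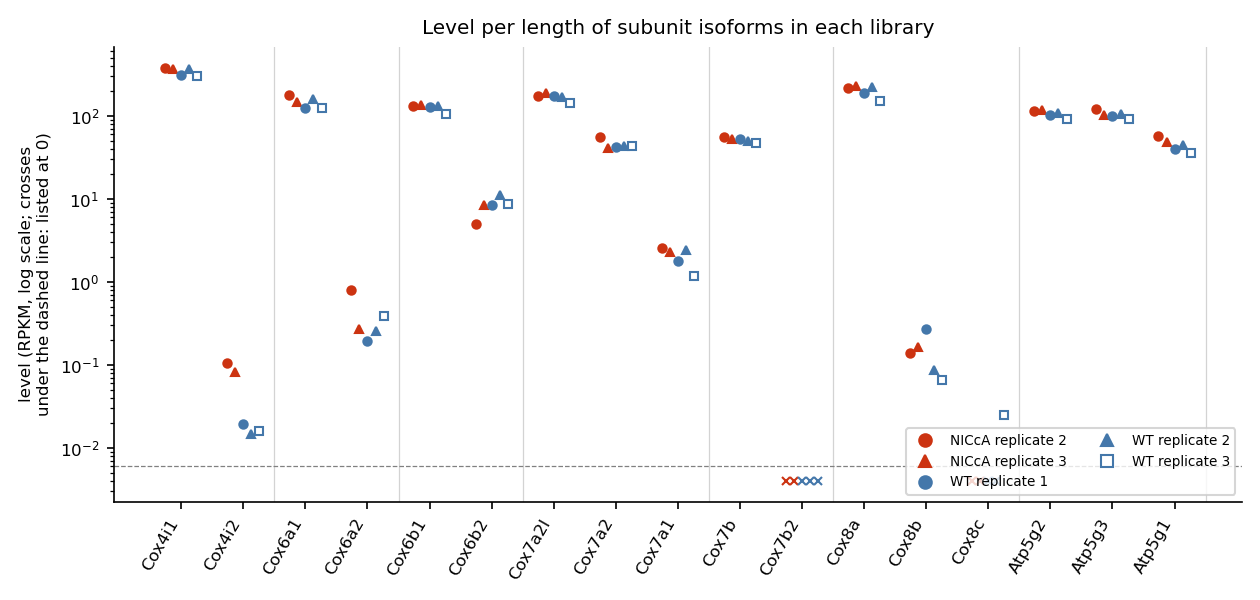
Deposited RPKM of isoform families of complex IV and of the c subunit of complex V in each library, on a log axis; NICcA libraries are red and WT libraries blue, and crosses under the dashed line mark libraries listed at 0. The ubiquitous forms lie far above the tissue-restricted forms in every library, Cox6b2 is the highest restricted form, and the 3 Atp5g genes lie close together.

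Complex V had the highest summed CPM of the 4 complexes. In summed RPKM, which adjusts for transcript length, complex IV was above complex V in every library. That order rested on Cox7a2l, which is not a core subunit. Cox7a2l was at 175 and 189 RPKM in NICcA and at 176, 168 and 142 RPKM in WT. In every library this was more than the gap between the summed RPKM of complexes IV and V. Atp5b and Atp5a1 encode the catalytic beta and the alpha subunit of the soluble head. Atp5b was at 608 and 511 CPM in NICcA, against 491, 545 and 470 CPM in WT (log2 fold change 0.16, SE 0.14, edgeR adjusted p = 0.59); the value was 0.02 without NICcA replicate 2 and 0.28 without NICcA replicate 3. Atp5a1 was at 561 and 495 CPM in NICcA, against 497, 553 and 501 CPM in WT (log2 fold change 0.03, SE 0.12, adjusted p = 0.92). In both, NICcA replicate 2 was the highest library; NICcA replicate 3 lay within the WT range for Atp5b and just under it for Atp5a1. Atp5c1 and Atp5d, of the central stalk, had log2 fold changes of -0.02 and 0.17 with overlapping groups.

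Atp5e, the epsilon subunit of the central stalk, had the smallest p of all 45 members. It was at 61.0 and 64.7 CPM in NICcA, against 56.7, 38.4 and 47.9 CPM in WT. Both NICcA libraries were above all WT libraries, and WT replicate 2, which was the highest library for 19 of the 39 core subunits, was the lowest here. The log2 fold change was 0.40 (SE 0.17, 95% interval -0.02 to 0.82) and did not pass (edgeR adjusted p = 0.36); it was 0.26 without WT replicate 2 and 0.54 without WT replicate 1. None of the 50-base stretches of the Atp5e transcript occurred in transcripts of another gene.

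The c subunit, which forms the rotating ring in the membrane, is encoded by Atp5g1, Atp5g2 and Atp5g3, whose precursors differ in their targeting peptide and give the same mature protein. Atp5g1 was at 54.9 and 45.5 CPM in NICcA, against 39.5, 46.7 and 36.9 CPM in WT (log2 fold change 0.29, SE 0.15, edgeR adjusted p = 0.39). Its groups overlapped at WT replicate 2, and the value was 0.15 without NICcA replicate 2. Atp5g2 was at 86.8 and 88.2 CPM in NICcA, against 82.2, 91.8 and 76.1 CPM in WT (log2 fold change 0.07), and Atp5g3 had a log2 fold change of 0.05. In summed RPKM of the 3 genes, Atp5g1 held 19.8% and 18% in NICcA, against 16.3%, 17.3% and 16.2% in WT, a difference of 2.31 percentage points (exact permutation test, two-sided, p = 0.20, the smallest it can give; adjusted p = 0.80). Both NICcA shares were above all WT shares, by less than 1 percentage point between NICcA replicate 3 and WT replicate 2. In the transcripts of reference, 66.0% of the 50-base stretches of Atp5g1 and 87.4% of those of Atp5g2 also occur in processed pseudogenes, while 0 are shared among members, so the counts of these genes could hold or lack reads of the copies.

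The subunits of the peripheral stalk and of the membrane part had log2 fold changes between -0.03 and 0.18: -0.01 for Atp5f1, -0.03 for Atp5h, 0.01 for Atp5j, 0.11 for Atp5o, 0.18 for Atp5j2, 0.16 for Atp5k and 0.04 for Atp5l, with overlapping groups in each. Atp5k was at 16.8 and 17.4 CPM in NICcA, against 16.9, 17.7 and 11.1 CPM in WT, with WT replicate 3 apart from the other libraries. Atp5s and Atp5sl are named Dmac2l and Dmac2 by RefSeq. Atp5s was low at 0.598 and 1.12 CPM in NICcA, against 1.30, 1.35 and 0.986 CPM in WT (log2 fold change -0.49, SE 0.37, edgeR adjusted p = 0.53). It overlapped between the groups, and its value was -0.11 without NICcA replicate 2. Atp5sl was at 18 and 20.0 CPM in NICcA, against 21.0, 20.3 and 19.8 CPM in WT (log2 fold change -0.10, adjusted p = 0.67).

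Summed over its members, each complex overlapped between the genotypes. Complex II summed to 434 and 411 CPM in NICcA, against 435, 462 and 405 CPM in WT. Complex III summed to 611 and 605 CPM in NICcA, against 549, 659 and 509 CPM in WT. Complex IV summed to 1228 and 1198 CPM in NICcA, against 1126, 1275 and 1038 CPM in WT. In complexes III and IV the NICcA libraries were near each other and inside the WT range. Complex V summed to 2069 and 1890 CPM in NICcA, against 1839, 1989 and 1742 CPM in WT. All members together averaged 4281 ± 176 CPM in NICcA (SD, n = 2) and 4069 ± 350 CPM in WT (SD, n = 3), a ratio of 1.05. The sums in the deposited RPKM, which carry no TMM scaling, were higher in both NICcA libraries than in any WT library for complex IV (1566 and 1527 RPKM in NICcA, against 1353, 1493 and 1200 RPKM in WT) and complex V (1526 and 1449 RPKM in NICcA, against 1318, 1335 and 1160 RPKM in WT). Without a scaling factor the median log2 fold change of all genes moved to 0.11 and that of the members to 0.16, so that relative to all genes the members were 0.05 higher, as with TMM.

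**Figure D4:**
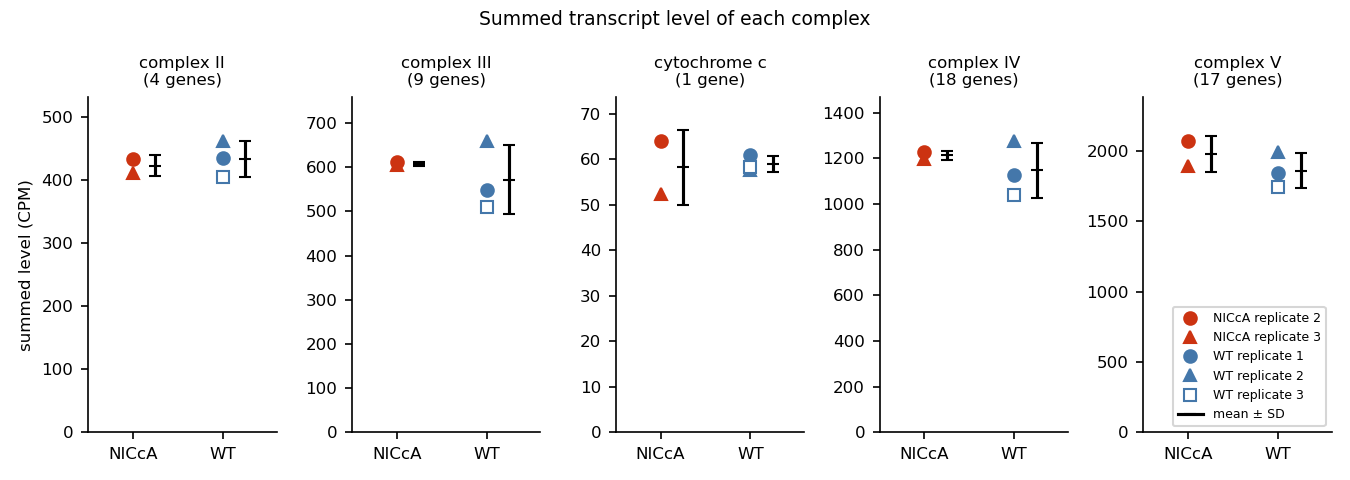
Summed level of each complex (y axis, CPM from 0) in NICcA and WT, with 1 point per library and the mean ± SD beside the points. In all 5 panels the NICcA and WT points overlap, and WT replicate 3 is the lowest point for complexes II, III, IV and V.

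Genes that build or regulate these complexes were counted in the same test. Of 34 assembly factors, 0 were called, the median log2 fold change was 0.01, and both NICcA libraries were above all WT libraries for 5 and below them for 6 (18.3% and 18.5% of all genes). The smallest p values were those of Cox20 and Cox18, which help insert a catalytic subunit of complex IV into the membrane. Cox20 was at 6.21 and 9.27 CPM in NICcA, against 10.9, 9.64 and 11.6 CPM in WT (log2 fold change -0.47, SE 0.21, edgeR adjusted p = 0.36), with no overlap. Cox18 was at 9.54 and 6.89 CPM in NICcA, against 4.75, 7.14 and 5.58 CPM in WT (log2 fold change 0.49, SE 0.24, adjusted p = 0.38), with overlap at WT replicate 2. Neither passed. In each of this list and the 3 lists that follow, edgeR found 0 genes at an unadjusted p under 0.05 and DESeq2 called 0.

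Of 9 subunits, inhibitors and carriers listed under other symbols, 0 were called and the median log2 fold change was 0.09. Slc25a4, an ADP/ATP carrier, was at 127 and 121 CPM in NICcA, against 112, 118 and 105 CPM in WT (log2 fold change 0.15, SE 0.10, edgeR adjusted p = 0.51). Atpif1, the inhibitor that stops complex V from running in reverse, was at 64.2 and 59.7 CPM in NICcA, against 51.7, 62.5 and 49.0 CPM in WT (log2 fold change 0.19, SE 0.13, adjusted p = 0.52). Without overlap between the groups, 2 of the 9 were higher in NICcA (Slc25a4 and Ndufa4) and 0 were lower (18.3% and 18.5% of all genes). Atpif1 overlapped.

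Of 13 regulators of mitochondrial biogenesis, 0 were called, the median log2 fold change was 0.00, and 3 were lower without overlap (18.5% of all genes). Gabpa, the DNA-binding subunit of the factor that reads the ETS letters, was at 40.1 and 48.1 CPM in NICcA, against 55.1, 48.7 and 52.6 CPM in WT (log2 fold change -0.24, SE 0.12, edgeR adjusted p = 0.40). Ppargc1b, a coactivator of respiratory genes, was at 11.7 and 8.87 CPM in NICcA, against 12.2, 13.9 and 12.0 CPM in WT (log2 fold change -0.31, SE 0.17, adjusted p = 0.42). Both were lower in the 2 NICcA libraries than in any WT library by small margins, and neither passed. Gabpa overlaps Atp5j, and 16.3% of the 50-base stretches of the Atp5j transcript occur in other genes, Gabpa among them. Nrf1 had a log2 fold change of 0.05 and Yy1 of -0.06.

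Of 16 other mitochondrial proteins, 0 were called and the median log2 fold change was 0.03. Without overlap, 2 were higher in NICcA and 3 were lower (18.3% and 18.5% of all genes). The prohibitins Phb2 and Phb, scaffolds of the inner membrane, had the smallest p of that list. Phb2 was at 94.3 and 81.2 CPM in NICcA, against 68.9, 77.9 and 76.9 CPM in WT (log2 fold change 0.24, SE 0.11, edgeR adjusted p = 0.38), with no overlap. Phb was at 69.0 and 58.8 CPM in NICcA, against 48.4, 60.9 and 50.5 CPM in WT (log2 fold change 0.26, SE 0.14, adjusted p = 0.41), with overlap at WT replicate 2.

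Respiratory subunit genes have many processed pseudogenes, and how the authors counted reads that match several places is not given in the sources used here. Of the 49 members, 22 had no 50-base stretch in another annotated gene, among them Atp5e, Cox6b2, Sdha and Atp5g3, and 5 shared over 50% of their stretches. Beside Atp5g2 and Atp5g1 these were Atp5l (84.8%, with 12 pseudogenes), Cox7c (53.0%) and Atp5h (50.5%). Uqcrb, whose groups did not overlap, shared 43.4%, and its values are uncertain for that reason.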

How the data were processed

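Messenger RNA of 5 libraries (2 NICcA, 3 WT, grouped by the genotype in the labels) was analysed. Per the file headers, the main deposited table gives raw counts and RPKM made by the authors for each RefSeq transcript row. Bowtie 0.12.2 and build mm8 appear in the submitters' processing notes; the counting tool is not given in the sources used here. Testing used edgeR 4.0.16 under R 4.3.3 on the raw counts (TMM, filterByExpr, glmQLFit, glmQLFTest; genotype as the only term; Benjamini-Hochberg over 18267 rows, 13341 genes, threshold 0.05; common biological coefficient of variation 22.5%). Standard errors are the log2 fold change over the square root of F. Deviations use log2 CPM with a prior count of 2. The procedure was tested on simulated data. Alternatives were other scalings and filters, DESeq2 1.42.0, limma 3.58.1 (voom, and log2(RPKM + 1) or log2(RPKM + 0.1) for an RPKM of at least 1 in 2 libraries), a replicate block and each library left out. Members and lists were chosen with earlier results of these data known. Named with full statistics were, per complex, the 3 members with the smallest p and the 2 with the highest RPKM, the tissue-restricted isoforms, and the 2 smallest p of each list; Atp5g2, Atp5sl and the inflammatory list were added after their values were seen. Sequences and overlaps used RefSeq tables of GRCm38.p6 and the GENCODE transcripts (50-base stretches), so the files' own coordinates were not used. Python 3.11.15, pandas 2.3.3, scipy 1.17.1 and matplotlib 3.10.9 were used. A second table of RPKM alone was deposited by the authors and was not used in the tests.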

Additional observations from a re-analysis of the deposited data

How the results depend on the processing

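Under the 16 alternatives 0 members were called, and of 331 values of members named with full statistics 305 kept their direction. Without a scaling factor the median log2 fold change was 0.16 for all members, 0.06 for complex II and 0.16 for complex V; on log2(RPKM + 1) it was 0.16, 0.07 and 0.17, and on log2(RPKM + 0.1) 0.16, 0.07 and 0.18. In these settings the median of all genes itself lay at 0.09 to 0.11. The log2 ratio of summed RPKM was 0.09 for complex II, 0.23 for complex V and 0.20 for all members. The same 3 settings reversed 5 values near 0: Cycs (0.08, 0.08 and 0.09), Sdha (0.03, 0.04 and 0.04), Sdhb (0.09, 0.10 and 0.10), Sdhc (0.04, 0.04 and 0.04) and Uqcrb (0.01, 0.02 and 0.02). With 1 library left out the median ran from 0.00 to 0.23 for complex III and from -0.17 to 0.12 for cytochrome c; values that changed direction ran from -0.17 to 0.12 for Cycs, -0.15 to 0.11 for Sdhb, -0.05 to 0.07 for Sdhd, -0.04 to 0.10 for Uqcrh, -0.06 to 0.12 for Atp5a1 and -0.19 to 1.37 for Cox6a2. The cause of reversals was not tested. The count of 0 members at an unadjusted p under 0.05 did not hold in every setting. In edgeR, 4 were higher without WT replicate 2, 2 without a scaling factor, and 1 each with the replicate block and without WT replicate 1. Without a filter edgeR gave 1 higher and 1 lower. DESeq2 gave 1 lower, and limma gave 2 higher on each RPKM scale. The share of all genes at that threshold was not counted in these settings. All genes called numbered 4 with edgeR, 527 with DESeq2, 11 without a filter and 2 with limma-voom or on RPKM; without a library the count ran from 0 to 44. With the replicate block, 0 members and 0 genes were called, the median was 0.05 and the smallest edgeR adjusted p 0.14 (Atp5e). Replicates 2 and 3 of the groups correlated at 0.20 and 0.17 in their deviations from the group means, and only a number ties them. With 2 NICcA libraries the deviations of one mirror those of the other, so these are not 2 separate checks. Isoform shares from counts kept their direction except that of Cox7a2l (-0.0153 percentage points from RPKM, 0.0212 from counts), and motif shares over a shorter window stayed above those of all genes. Protein identity between isoforms was not run. Depth limits Cox4i2, Cox7b2, Cox8b and Cox8c most.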
